A study of Mus musculus with 12 samples.

Results

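The results concern the genes whose response to the KO label differed between LSK cells and lineage-negative (LinNeg) marrow cells, and above all those that moved in opposite directions in the 2 populations. For each gene the log2 fold change of KO over WT in LinNeg was subtracted from that in LSK. A positive difference therefore means that the KO-labelled libraries stood higher, relative to WT, in LSK than in LinNeg. Of 24533 genes found in both tables, 10425 had a mean of at least 100 normalized counts and a p-value in each table and were tested. Opposite directions means a call by the authors (adjusted p under 0.05) in both tables with unlike signs. This held for 736 of the 10425 genes, of which 474 were higher in LSK and lower in LinNeg, and 262 were lower in LSK and higher in LinNeg.

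RNA was sequenced from 12 libraries of C57BL/6 mouse bone marrow, with 3 libraries in each of 4 groups: LinNeg WT, LinNeg KO, LSK WT and LSK KO. KO refers to the splicing factor gene U2af1, and the series asks whether that gene is needed by blood stem and progenitor cells. LinNeg cells are marrow depleted of cells that carry markers of mature lineages, and LSK cells are the part of them that also carries Sca-1 and c-Kit. The source label of the LSK groups holds the abbreviation BMT, left unexplained, and that of the LinNeg groups does not, so population and that setting cannot be told apart. The sources used here do not give how U2af1 was deleted, in which cells, or the age of the mice. The labels do not state that the 3 libraries of a group came from separate animals, so the error behind each test is a spread among libraries that may be technical replicates.

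U2af1 encodes the small subunit of the U2 auxiliary factor, which reads the AG dinucleotide at the end of an intron when the spliceosome first assembles. The LSK compartment holds the stem cells and the earliest progenitors with many fates, while the wider LinNeg fraction is mostly made of progenitors already committed to erythroid, megakaryocytic, granulocytic, monocytic, mast cell or lymphoid fates. Progenitors of the granulocyte and monocyte lineages make granule proteases, peroxidase and Fc receptors, products that pass through the endoplasmic reticulum.

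The values come from 2 tables of the authors' comparisons, and values of single libraries were not analysed here, so depth per library is unknown. To show levels, a mean per label was derived from the deposited mean and fold change, taking 3 libraries on each side. The tables were normalized separately, so a level is compared only within a table. The LSK table was the tighter one, with a median standard error of 0.09 on the log2 scale against 0.20 in LinNeg, and the median standard error of a difference was 0.22. At that standard error the smallest difference that passed the test was 0.51. The label could not be checked on the targeted gene: in the authors' deposited tables U2af1 had log2 fold changes of 0.61 (standard error 0.06) in LSK and 0.65 (standard error 0.19) in LinNeg, and the difference of -0.04 (standard error 0.20) did not pass (adjusted p = 0.900, two-sided normal test with Benjamini-Hochberg adjustment). U2af1 was thus called higher under KO by the authors in both populations (adjusted p under 0.05), and the cause was not tested. A count over the whole gene also takes in exons outside a deleted stretch, so it does not show whether a stretch was deleted. Directions below therefore rest on the label.

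Markers of the gates and transcripts of other origin were read within each table. Kit, the receptor for stem cell factor, had a mean of 21655 in the LSK table, where Ly6a, which encodes Sca-1, had 464. The T cell gene Cd3e and the granulocyte gene Ly6g had means of 9.48 and 1.62 there, while the myeloid gene Itgam had 864. In the LinNeg table Kit had 1879, Ly6a 1694, and the stromal collagen gene Col1a1 had a mean of 94938. The Y-linked genes Ddx3y, Eif2s3y, Kdm5d and Uty had log2 fold changes of -9.21, -9.15, -8.95 and -9.06 in the authors' deposited LSK table. In LSK the KO label and the lower Y-linked RNA therefore cannot be told apart. In LinNeg the values of the Y-linked genes in the authors' deposited table ran from -0.91 to -0.68 with standard errors of 1.45 to 1.99. Xist, which coats the inactive X chromosome, was higher under KO in both of the authors' deposited tables (7.49 in LSK, 10.02 in LinNeg). In LinNeg as in LSK, the KO label and the higher Xist RNA therefore cannot be told apart. The labels do not give the sex of the mice in each group, and a difference in sex between KO and WT was not tested. Of 20 neural markers 18 were called higher in LSK (median log2 fold change 6.21) and 12 in LinNeg (median 1.74). Of 12 male accessory gland markers 11 were called higher in LinNeg, where their summed derived mean went from 384 to 246558, and 11 were listed at 0 in LSK. Of the 10 of 12 epithelial markers with an adjusted p in LinNeg, 6 were called higher and 1 lower (median 4.36), and 7 of the 12 were listed at 0 in LSK. The endothelial and stromal list had 3 higher and 7 lower of 21 in LSK and 1 higher and 8 lower in LinNeg, the muscle list 2 and 2 of 7 in LSK and 3 and 0 of 8 in LinNeg, and the liver list 1 and 1 of 4 and 3 and 0 of 8. Most genes of these marker lists did not reach the minimum mean in both tables and could not enter an opposite class. Those tested were 8 neural, 8 endothelial and stromal, 1 epithelial and 5 sex-linked genes. Of the male accessory gland, muscle and liver lists 0 genes were tested. Of the tested marker genes 0 were in either opposite class, but they are too few to set against the 7.06% over all tested genes. The part of such transcripts in the results below was not tested.

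The KO effect differed between LSK and LinNeg in 3959 of 10425 genes, 38.0% of those tested. It was higher in LSK in 2393 genes (23.0%) and lower in LSK in 1566 (15%), and the difference reached 2-fold in 896 and 863 of them. Of the same genes, 4345 (41.7%) were called higher in the authors' deposited LSK table and 3688 (35.4%) lower there. The authors' deposited LinNeg table called 2365 (22.7%) higher and 2890 (27.7%) lower. Across genes the log2 fold changes of the 2 tables, which share no library, had a Pearson correlation of 0.42 and a Spearman correlation of 0.51; genes are not independent replicates.

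Most genes called in both populations moved the same way. Of 4404 such genes, 1858 were higher and 1810 lower in both, and 736 (16.7%) were opposite. The opposite genes were 7.06% of all tested: 4.55% were higher in LSK and lower in LinNeg, and 2.51% were lower in LSK and higher in LinNeg. Read by list, the 474 genes were 10.9% of the rises in LSK and 16.4% of the falls in LinNeg, and the 262 genes were 7.10% of the falls in LSK and 11.1% of the rises in LinNeg. A same-direction call did not mean an equal effect: the difference itself passed in 382 of the 1858 genes higher in both and in 705 of the 1810 lower in both. Among the latter, the fall was deeper in LinNeg in 584 genes and deeper in LSK in 121. A further group was called in 1 table only, and there the difference passed in 718 of 2013 genes higher in LSK alone, 682 of 1616 lower in LSK alone, 188 of 245 higher in LinNeg alone and 499 of 606 lower in LinNeg alone.

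**Figure D1:**
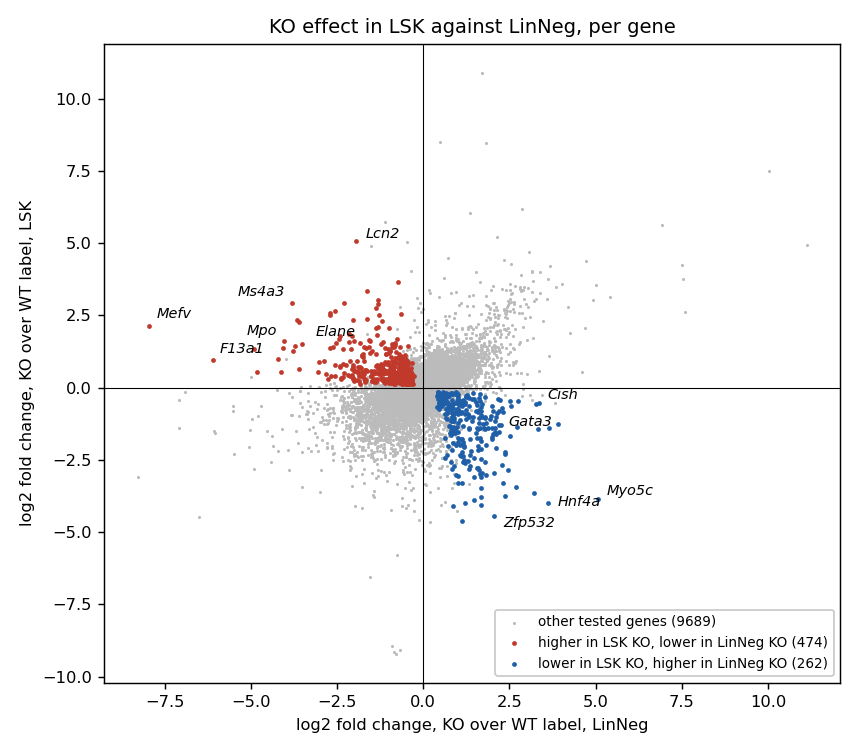
Each point is 1 of 10425 tested genes, with the log2 fold change of KO over WT in LinNeg on the x axis and in LSK on the y axis. Red marks the 474 genes higher in LSK and lower in LinNeg, blue the 262 genes with the reverse pattern; Mefv and F13a1 lie far to the left and Myo5c far to the right.

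The 2 opposite classes had different shapes. In the 474 genes higher in LSK, the median log2 fold change in the authors' deposited tables was 0.46 in LSK and -0.81 in LinNeg, and the median difference was 1.32. In the 262 genes lower in LSK, the medians were -1.03 and 1.15 and the median difference -2.42. Membership fixes these signs, so the medians describe the classes and test nothing. Genes that moved at least 2-fold in both tables numbered 57 in the first class and 103 in the second. The second class was lower in level, with a median mean of 516 normalized counts in LSK and 477 in LinNeg against 1409 and 1360 over all tested genes, while the first stood at 2012 and 2582. Its LinNeg standard errors were wider, with a median of 0.32 against 0.17 in the first class, and 20 of its 262 members had one of at least 0.5, as did 8 of the 474 and 178 of all 10425. At the edge of the first class, Ino80b was just inside with a larger adjusted p of 0.0496 in the authors' deposited tables and Gadd45b just outside at 0.05005. At the edge of the second, Nhsl1 was inside at 0.0492 and Mpp7 outside at 0.0516 in the authors' deposited tables.

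Granule and receptor genes of myeloid progenitors were among those that rose most in LSK while falling most in LinNeg. The 15 with the largest smaller change of the 2 tables were Ms4a3, Fcgr3, Csrp3, Elane, Hp, Chst13, Ly6c2, Mefv, Igsf6, Lcn2, Mmp19, Far2, Papss2, Pglyrp1 and Hdc. Ms4a3, a membrane protein of granulocyte and monocyte progenitors, went from a derived mean of 792 under WT to 6003 under KO in LSK, and from 4315 to 309 in LinNeg. The fold changes in the authors' deposited tables were 2.92 (standard error 0.11) and -3.80 (standard error 0.55), a difference of 6.73 (standard error 0.56). Fcgr3, a low-affinity receptor for IgG, went from 214 to 1270 in LSK and from 8156 to 1254 in LinNeg, a difference of 5.27 (standard error 0.26). Lcn2, the iron-scavenging lipocalin of neutrophil granules, had the steepest rise of the 15 in LSK, from 20 to 657, beside a fall from 479 to 124 in LinNeg. Mefv, which encodes the inflammasome protein pyrin, had the steepest fall of them in LinNeg, from 654 to 2.63 (log2 fold change -7.96, standard error 0.60, in the authors' deposited table), and a rise from 47 to 210 in LSK. Members with other known roles were among the 15: Csrp3, a LIM protein best known from striated muscle, went from 34 to 211 in LSK and from 2580 to 441 in LinNeg. The sulfotransferase Chst13 went from 31 to 241 and from 1702 to 344, and Papss2, which makes the sulfate donor for such enzymes, from 155 to 535 and from 4478 to 831.

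The reverse pattern, lower in LSK and higher in LinNeg, had other leading genes. Among the 15 leading members were Myo5c, Hnf4a, Lrrn4, F11r, Hid1, Plcl1, Adam22, Tanc2, Cysltr2, Zfp532, Hdgfrp3, Ptprf, Plxna4 and Tmtc2. Hnf4a, a nuclear receptor of liver and gut, fell from a derived mean of 801 to 51 in LSK and rose from 21 to 262 in LinNeg, a difference of -7.61 (standard error 0.91). F11r, the junctional adhesion molecule JAM-A, went from 612 to 86 and from 38 to 210. In these and in Myo5c (12 to 399 in LinNeg), the LinNeg level under WT was low and the fold change had a wide standard error: 0.89 for Hnf4a, 0.81 for F11r and 1.85 for Myo5c in the authors' deposited table. Other members of the 15 were measured more tightly. Ptprf, a receptor tyrosine phosphatase, went from 248 to 62 in LSK and from 533 to 1886 in LinNeg, with a standard error of 0.26 for the LinNeg log2 fold change of 1.82 in the authors' deposited table. The postsynaptic scaffold gene Tanc2 went from 1027 to 218 and from 322 to 1678 (difference -4.62, standard error 0.34). The leukotriene receptor gene Cysltr2 went from 411 to 97 and from 121 to 524, and the semaphorin receptor gene Plxna4 from 296 to 36 and from 98 to 341. In LinNeg, epithelial, neural and male accessory gland markers were called higher under KO, in the numbers given above; their part in this pattern was not tested. In LSK, where these genes fell, 18 of 20 neural markers were called higher and 1 lower. There 7 of 21 endothelial and stromal markers were called lower and 3 higher. Krt18, the 1 epithelial marker tested, was at -1.45 in LSK and, not called, at 1.74 in LinNeg in the authors' deposited tables.

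**Figure D2:**
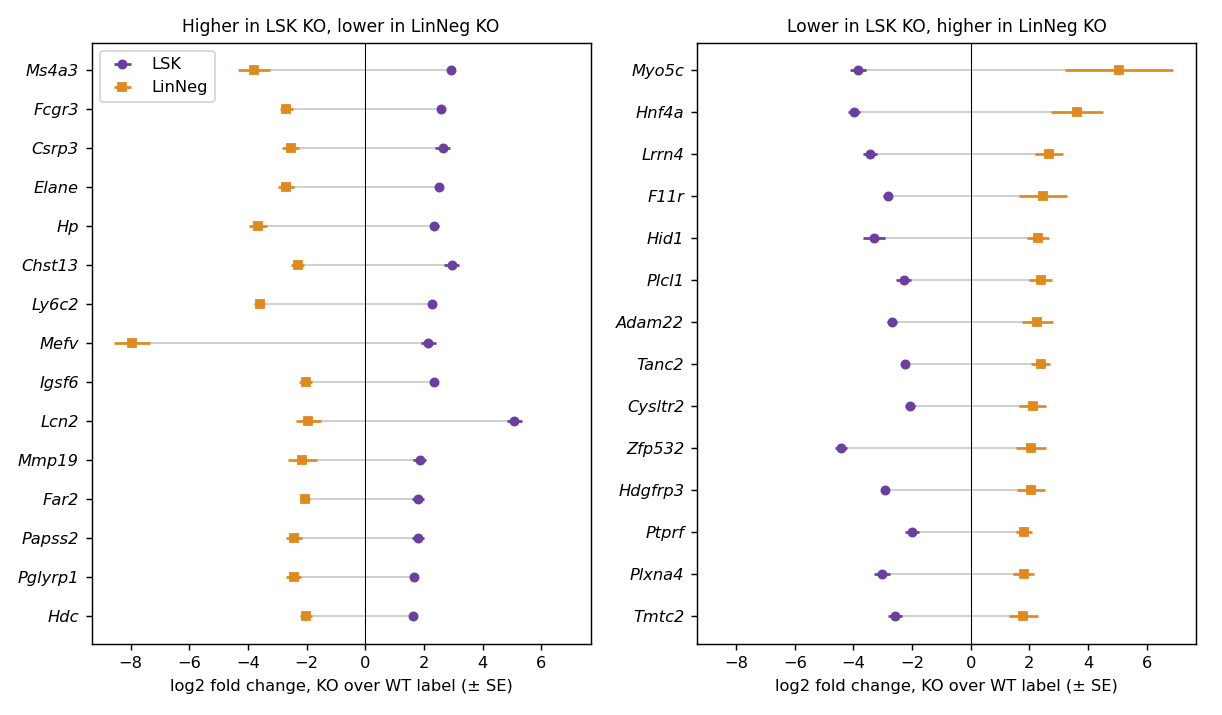
Log2 fold changes of KO over WT with their standard errors in LSK (circles) and LinNeg (squares) for leading genes of each opposite class, on the x axis. On the left LSK lies above 0 and LinNeg below, with Mefv at -7.96 in LinNeg; on the right the order is reversed and the LinNeg bars of Myo5c, Hnf4a and F11r are the widest.

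Primary granule and neutrophil progenitor genes held the largest share of opposite members among the lists of at least 5 tested genes. Of 23 tested, 14 were higher in LSK and lower in LinNeg, against a background of 4.55%, and 0 showed the reverse. The difference passed in 21, all in the direction of LSK. Their median log2 fold change was 0.93 in LSK and -2.71 in LinNeg, with a median difference of 2.99, against 0.07 over all tested genes. These are whole-population RNA measurements, so fewer cells of a type and less RNA per cell cannot be told apart.

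The serine proteases of the azurophil granule moved together. Elane, neutrophil elastase, went from a derived mean of 2914 under WT to 16755 under KO in LSK and from 1146 to 175 in LinNeg, a difference of 5.24 (standard error 0.29). Prtn3, proteinase 3, went from 6305 to 17133 and from 4804 to 363, and Ctsg, cathepsin G, from 5359 to 16290 and from 17701 to 1074. Mpo, myeloperoxidase, went from 45742 to 115072 in LSK and from 58450 to 1952 in LinNeg, with a difference of 6.24 (standard error 0.26, adjusted p = 2.72e-119, two-sided normal test with Benjamini-Hochberg adjustment). Hp, haptoglobin, went from 298 to 1523 and from 1911 to 151. The protease gene Prss57, the cystatin gene Cst7, the proteoglycan core gene Srgn, Plac8, Igsf6, Ap3s1 and Gstm1 shared the pattern. So did Cebpa, the transcription factor that opens the granulocyte programme, though its rise in LSK was small: 3366 to 4147, beside 24024 to 3563 in LinNeg.

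Promoters of these genes are shown because the members move together and 2 of them, Prtn3 and Elane, are neighbours on chromosome 10. Each runs from 250 bases before to 50 bases after the start in RefSeq (GRCm38.p6), read 5′ to 3′ on the gene's strand. Capitals mark matches to the short strings searched on either strand for CEBP, GATA, ETS, RUNX, MYB and TATA; the letters of each are given with the shares below. The windows are chr10:79886062-79886361 on the plus strand for Elane, chr10:79879417-79879716 on the plus strand for Prtn3, chr14:56102525-56102824 on the minus strand for Ctsg and chr11:87793534-87793833 on the plus strand for Mpo. Gata3, chr2:9878551-9878850 on the minus strand, is shown from the reverse class.
Elane: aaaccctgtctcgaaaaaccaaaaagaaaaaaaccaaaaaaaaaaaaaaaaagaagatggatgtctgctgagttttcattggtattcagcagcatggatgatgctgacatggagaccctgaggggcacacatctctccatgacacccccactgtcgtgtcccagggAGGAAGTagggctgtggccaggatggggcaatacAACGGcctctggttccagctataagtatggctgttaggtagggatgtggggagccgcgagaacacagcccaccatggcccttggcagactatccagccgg
Prtn3: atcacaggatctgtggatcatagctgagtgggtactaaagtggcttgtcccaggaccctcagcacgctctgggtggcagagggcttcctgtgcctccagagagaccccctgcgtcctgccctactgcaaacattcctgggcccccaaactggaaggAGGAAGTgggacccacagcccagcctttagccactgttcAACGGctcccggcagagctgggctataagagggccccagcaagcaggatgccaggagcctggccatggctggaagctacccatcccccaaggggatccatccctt
Ctsg: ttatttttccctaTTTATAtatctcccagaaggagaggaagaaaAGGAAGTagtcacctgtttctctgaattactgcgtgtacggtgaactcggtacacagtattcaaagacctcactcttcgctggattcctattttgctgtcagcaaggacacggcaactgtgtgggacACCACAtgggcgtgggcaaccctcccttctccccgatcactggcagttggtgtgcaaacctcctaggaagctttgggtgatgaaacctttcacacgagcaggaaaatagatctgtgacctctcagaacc
Mpo: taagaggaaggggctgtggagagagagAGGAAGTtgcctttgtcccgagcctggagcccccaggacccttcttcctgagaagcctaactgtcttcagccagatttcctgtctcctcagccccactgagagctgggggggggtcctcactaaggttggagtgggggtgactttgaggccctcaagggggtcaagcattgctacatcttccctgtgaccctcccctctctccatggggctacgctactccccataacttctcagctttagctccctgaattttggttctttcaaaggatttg
Gata3: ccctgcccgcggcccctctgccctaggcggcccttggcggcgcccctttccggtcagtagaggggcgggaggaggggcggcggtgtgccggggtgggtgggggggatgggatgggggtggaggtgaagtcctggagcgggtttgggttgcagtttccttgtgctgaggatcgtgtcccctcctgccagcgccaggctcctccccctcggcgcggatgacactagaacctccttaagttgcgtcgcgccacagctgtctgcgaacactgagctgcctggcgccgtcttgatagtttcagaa
All 4 granule promoters hold the ETS string on the strand shown. Elane and Prtn3 each hold it once together with 1 match to the MYB string, and Ctsg also holds the RUNX and TATA strings on the other strand. The Gata3 window holds none of the 6.

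The shares of promoters with each string were close to those over all tested genes in most cases. The ETS string AGGAAGT was in 9.24% of 357 promoters of the first class, 7.32% of 205 of the second, 9.21% of 8194 tested genes and 9.57% of all 27025 promoters of the table. For MYB (AACGG) the shares were 27.2%, 16.6%, 24.8% and 17.7%, for the E-box CACGTG 13.2%, 5.37%, 10.9% and 7.24%, and for CEBP (TTGCGCA) 3.92%, 0.976%, 3.95% and 2.11%. RUNX (TGTGGT) was in 13.4%, 12.7%, 12.4% and 16.9%. For GATA factors the string searched, AGATAA, was in 6.72%, 7.80%, 5.98% and 11.4%, and the TATA box, searched as TATAAA, in 5.60%, 7.80%, 6.02% and 14.2%. KLF (CCACACC) was in 6.16%, 6.34%, 7.37% and 7.69%, and CCAAT in 40.6%, 36.6%, 39.6% and 37.9%. These shares are counts of letters on both strands, with no test, and KLF and reversed RUNX matches can share bases.

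Later neutrophil products followed in part. Of 9 tested genes of the late granule list, 3 were opposite: Lcn2, Pglyrp1 and Cebpd. The difference passed in 7, all higher in LSK (medians 0.02 in LSK, -1.95 in LinNeg). The list has 24 genes: with no floor on the mean 23 were tested, 7 were opposite and the LSK median was 2.37. The genes added by that setting lie below the floor in at least one of the tables. With a floor of 1000, 3 were tested, 0 were opposite and the LSK median was -1.43. Doubled standard errors left 1 of the 3 opposite genes. The LSK median of this list thus depended on the floor. Among the 6 NADPH oxidase genes the difference passed in all 6, and the membrane subunits Cybb and Cyba were opposite. Cybb went from 145 to 722 in LSK and from 1125 to 494 in LinNeg.

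**Figure D3:**
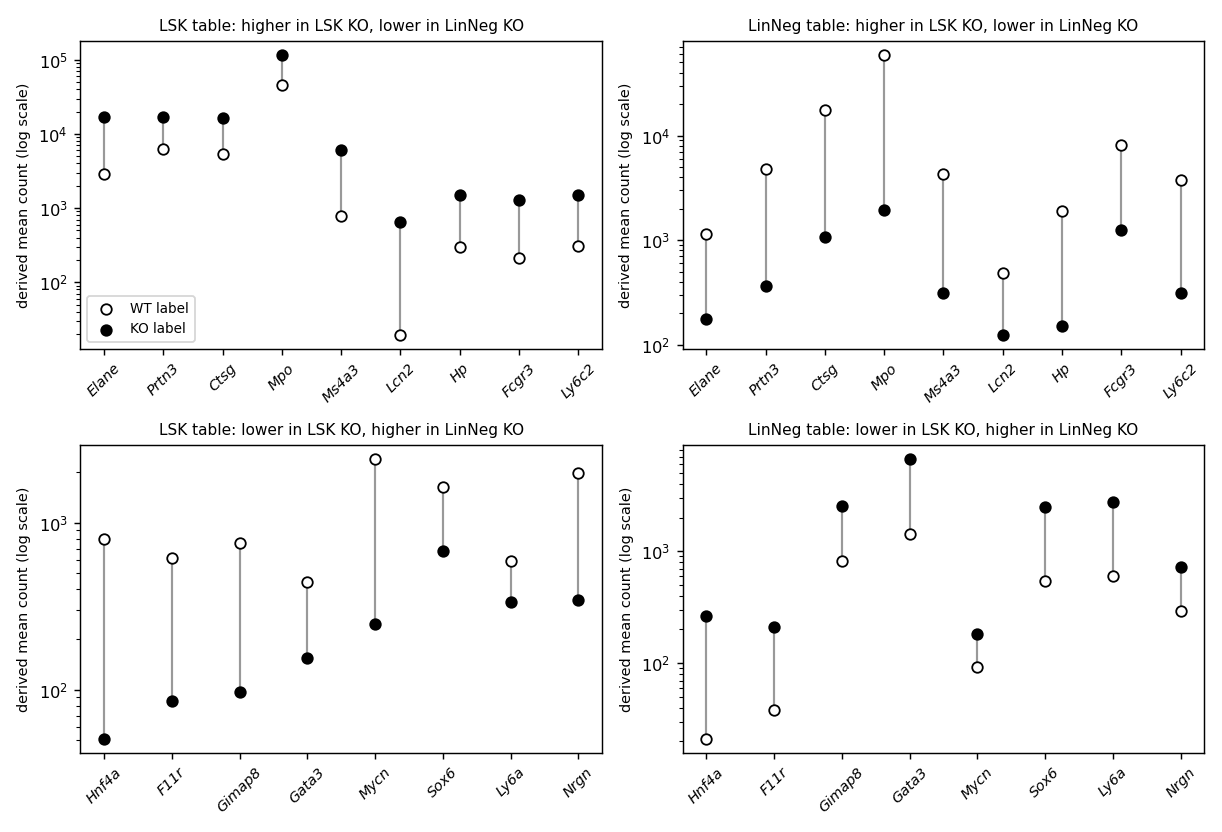
Derived mean normalized counts per label on a log axis, with open circles for WT and filled circles for KO, in LSK (left) and LinNeg (right); levels are not comparable between the panels of a row. In the upper row KO lies above WT in LSK and below it in LinNeg for all the genes shown, as for Elane at 2914 and 16755 against 1146 and 175, and in the lower row the order is reversed.

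Monocyte and macrophage genes separated the populations mainly by the depth of their fall in LinNeg. Of 19 tested, all 19 were lower in LinNeg, 6 were higher and 7 lower in LSK, and the difference passed in 18 (median 3.07). The 6 opposite genes were F13a1, Ly6c2, Fcgr3, Fcgr2b, Cx3cr1 and Ccr2. F13a1, the A chain of coagulation factor XIII, had the largest difference in units of its standard error among tested genes with a proper name. Symbols such as Gm plus digits or ending in Rik were left out of that ranking. F13a1 went from 1242 to 2426 in LSK and from 11536 to 166 in LinNeg, a difference of 7.08 (standard error 0.19). Ly6c2, a surface marker of inflammatory monocytes, went from 308 to 1486 and from 3768 to 311, and the fractalkine receptor gene Cx3cr1 from 172 to 449 and from 2581 to 155. Ly6c2 came next by that measure; Tifab and Irf8, which followed it, were not opposite. Tifab went from 8454 to 70 in LinNeg and was not called in LSK (583 to 527). The regulator of monocyte and dendritic fate Irf8 fell in both, from 2312 to 826 in LSK and from 23519 to 350 in LinNeg (difference 4.59, standard error 0.19).

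In the dendritic cell and MHC class II list 1 of 15 was opposite, Bst2, a share near the 7.06% over all tested genes. The difference passed in 11, all higher in LSK (median 1.75). The Toll-like receptor list had 0 opposite members of 11, with 5 differences higher and 1 lower in LSK. Its endosomal chaperone Unc93b1 fell in both, from 2179 to 1243 in LSK and from 6267 to 602 in LinNeg (difference 2.57, standard error 0.28).

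In the mast cell, basophil and eosinophil list 6 of 16 were higher in LSK and lower in LinNeg: Mcpt8, Ms4a2, Fcer1a, Hdc, Csf2rb and Siglecf. Mcpt8, the basophil protease, went from 305 to 732 in LSK and from 130882 to 9568 in LinNeg. Ms4a2 and Fcer1a, both chains of the high-affinity IgE receptor, went from 387 to 1000 and from 126 to 314 in LSK, and from 36126 to 5492 and from 13612 to 2684 in LinNeg. The difference passed in 12 members with the effect higher in LSK and in 3 with it lower. Those 3, picked out after their values were seen, were Cma1, Mcpt4 and Tpsb2, with log2 fold changes of 3.76, 4.92 and 4.24 in LSK and 7.53, 11.13 and 7.52 in LinNeg in the authors' deposited tables.

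Of 25 myeloid cytokine receptor genes the difference passed in 16 upward and 3 downward, and 2 were opposite. These were Csf2rb, the shared beta chain for IL-3, IL-5 and GM-CSF (2636 to 4123 in LSK, 44890 to 10816 in LinNeg), and its neighbour Csf2rb2, the IL-3 specific copy (431 to 927 and 18114 to 5264). They are near-identical paralogs, so the split of reads between them is uncertain. Of 24 homing and adhesion genes 18 differed upward and 3 downward, with Itgb2 (1112 to 1342, 15435 to 5588) and F11r opposite in unlike directions. Their share of opposite genes was again near the 7.06% over all tested genes. In the myeloid transcription factor list 4 of 26 were opposite, all higher in LSK, and 13 differed upward and 2 downward, with 11 differences not called. Cebpb, which drives emergency granulopoiesis, went from 453 to 1185 and from 3317 to 1051, and Cebpd from 201 to 349 and from 1110 to 268. Id1, an inhibitor of basic helix-loop-helix factors, went from 27 to 199 in LSK and from 1076 to 435 in LinNeg.

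Genes of secretory protein folding were also among the opposite ones. In the unfolded protein and integrated stress response list 12 of 31 were higher in LSK and lower in LinNeg, and 1 was the reverse. Over all tested genes the shares were 4.55% and 2.51%. Within LSK 23 of the 31 were called higher and 4 lower, and within LinNeg 9 higher and 14 lower. The difference passed in 18 upward and 4 downward and was not called in 9. The 12 were Sdf2l1, Hyou1, Hsp90b1, Calr, Pdia3, Manf, Pdia6, Pdia4, Hspa5, Creld2, Dnajc3 and Edem1, which act as chaperones, disulfide isomerases and cofactors in the lumen of the endoplasmic reticulum or in the disposal of misfolded proteins. Their log2 fold changes in the authors' deposited tables ran from 0.24 to 1.53 in LSK and from -1.29 to -0.44 in LinNeg. Hspa5, the luminal chaperone BiP, went from 10852 to 22149 in LSK and from 16987 to 11826 in LinNeg. Sdf2l1 went from 734 to 2114 and from 2461 to 1044 (difference 2.76, standard error 0.23), and Calr, calreticulin, from 27989 to 47035 and from 40345 to 16446. The reverse member was Vldlr, a lipoprotein receptor (3558 to 627, 151 to 346). With each table recentred on its median gene the counts were 9 and 1, and with a 2-fold minimum in each table, 1 of the 12 was left.

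Of 37 lysosome and autophagy genes 10 were higher in LSK and lower in LinNeg, 1 was the reverse, and the difference passed in 27 upward and 2 downward; within LSK 18 were called higher and 10 lower. Ctsz, a lysosomal carboxypeptidase, went from 1891 to 4242 in LSK and from 4613 to 2172 in LinNeg, and Lamp1, a membrane glycoprotein of the lysosome, from 5357 to 7551 and from 8296 to 6351. Gabarapl1, of the ATG8 family, was the reverse member (3704 to 2505, 1109 to 1650), while its relative Gabarap went with the 10 (2334 to 2867, 6321 to 3533). Among 39 genes of glycolysis, the pentose phosphate pathway and the TCA cycle, 8 were higher in LSK and lower in LinNeg and 2 were the reverse. The 8 included Taldo1, Pgd and Pgls of the pentose phosphate pathway and Pfkp, Gpi1, Pgam1 and Pgk1 of glycolysis, with Idh1. Taldo1, transaldolase, went from 4235 to 8792 and from 12010 to 6333. The 2 reverse genes were Ldhb, the heart-type lactate dehydrogenase subunit (485 to 219, 96 to 406), and Pdk1, the kinase that holds back pyruvate dehydrogenase (4699 to 3656, 1228 to 3102). In the redox list 2 of 28 were opposite, Gsr (2505 to 6598, 10554 to 5654) and Prdx5, and in the cholesterol and fatty acid list 2 of 28, Acss2 and Ebp, both shares near the 7.06% over all tested genes.

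**Figure D4:**
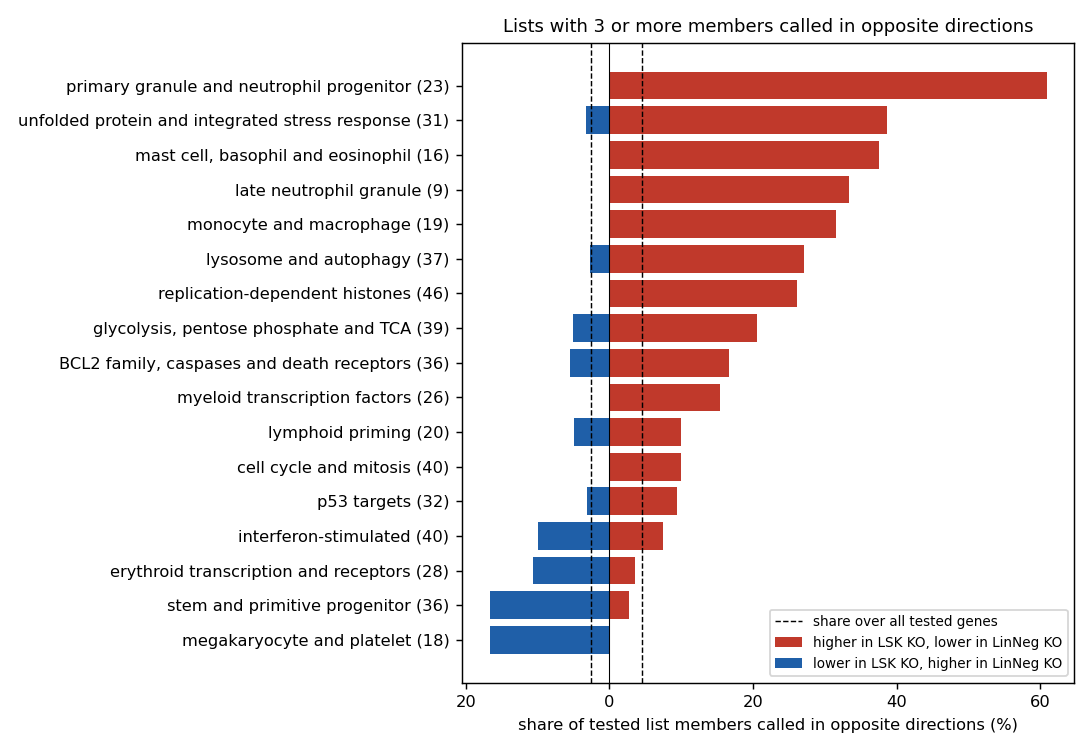
Share of tested list members called in opposite directions, in percent, for the lists with 3 or more such members (tested genes in brackets); red bars run right for genes higher in LSK and lower in LinNeg, blue bars left for the reverse. Dashed lines mark 4.55% and 2.51% over all tested genes, and the primary granule list, with 14 of 23, reaches furthest right.

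Replication-dependent histone genes were opposite in 12 of 46, all higher in LSK, and the difference passed in 35, all upward. These genes lie in clusters, have no introns and are near-identical, so single members are uncertain. Their changes were small, with log2 fold changes of 0.31 to 0.81 in LSK and -1.06 to -0.45 in LinNeg in the authors' deposited tables for the 12. Recentring each table on its median gene left 7 of the 12, an adjusted p under 0.01 left 2, and doubled standard errors or a 2-fold minimum left 0. Hist1h2bf went from 2682 to 4690 in LSK and from 5719 to 3997 in LinNeg. In the cell cycle list 4 of 40 were opposite (2 when recentred), and 20 differed upward and 1 downward. E2f8, a repressor of the E2F family, went from 3670 to 6257 and from 13291 to 6696. Top2a, Kif11 and Ccnd1 were the others, with rises in LSK of 0.15, 0.12 and 0.25 on the log2 scale in the authors' deposited table. DNA replication genes, by contrast, had 0 opposite members of 38, and their medians were 0.41 in LSK and 0.57 in LinNeg.

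Some genes of the mitochondrial death pathway were among the opposite ones. In the BCL2 family and caspase list 6 of 36 were higher in LSK and lower in LinNeg, against 4.55% over all tested genes. Among them were Pmaip1, Bid, Bad, Casp9 and Apaf1. Within LSK 12 of the 36 were called higher and 17 lower, and the list medians were -0.16 in LSK and -0.30 in LinNeg. Doubled standard errors left 2 of the 6, and a 2-fold minimum in each table left 1. Pmaip1, the BH3-only protein NOXA, went from 57 to 474 in LSK and from 242 to 97 in LinNeg (difference 4.36, standard error 0.46). Apaf1, the scaffold of the apoptosome, went from 3356 to 4400 and from 5566 to 3062. The 2 reverse members were the survival gene Bcl2l1, which encodes BCL-XL (888 to 705, 690 to 1639), and the inflammatory caspase gene Casp4 (622 to 368, 175 to 538). Of 32 p53 targets 3 were higher in LSK and lower in LinNeg, namely Pmaip1, Apaf1 and Dram1, and Trp53inp1 was the reverse (3267 to 797, 3207 to 5236). The DNA damage list had 0 opposite members of 51, with medians of 0.24 and 0.44. Its end-joining gene Xrcc5 rose in both, far more in LinNeg (1175 to 1670 in LSK, 258 to 1826 in LinNeg, difference -2.32, standard error 0.21).

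Stem and primitive progenitor genes had members of the reverse class. Of 36 tested, 6 were lower in LSK and higher in LinNeg, against 2.51% over all tested genes, and 1, Ifitm1, was the opposite way. The difference passed in 20 downward and 6 upward, with medians of -1.20 in LSK and -0.57 in LinNeg. With no floor on the mean, 57 were tested, 11 were of the reverse class, and the LinNeg median was 0.27. With a floor of 1000, 17 were tested, 2 were of the reverse class, and the LinNeg median was -1.48. An adjusted p under 0.01 left 3 of the 6, and doubled standard errors or a 2-fold minimum left 2. Recentring each table on its median gene gave 8, and Ifitm1 was no longer opposite. Gata3, a zinc finger factor of stem and T-lineage cells, went from 444 to 155 in LSK and from 1435 to 6639 in LinNeg (difference -3.73, standard error 0.31). Ly6a, which encodes Sca-1, the antigen that defines the LSK gate, went from 593 to 335 and from 605 to 2784. Mycn, a MYC family factor of stem cells, went from 2396 to 246 in LSK and from 92 to 183 in LinNeg. The other 3 were Tgm2, a transglutaminase (1284 to 823, 460 to 2700), Ctnnal1 and Nrip1. Sox6, a repressor of embryonic globin, had the largest negative difference in units of its standard error among tested genes with a proper name (1628 to 673, 543 to 2489). Next were the lipase gene Abhd6, the polarity scaffold gene Patj, Tanc2 and Gprc5b, all opposite, as Sox6 was, with differences from -5.14 to -4.62. The LSK and LinNeg samples were taken through different gates, one of which selects on Ly6a and Kit protein.

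Lymphoid, megakaryocytic and cytokine-response genes gave smaller sets. The GTPase gene Gimap8 went from 758 to 96 in LSK and from 815 to 2555 in LinNeg, and in its family the difference passed in 6 of 7, all lower in LSK. In the lymphoid priming list of 20, Ikzf1 and Hdac7 were higher in LSK and lower in LinNeg and Ltb, lymphotoxin beta, was the reverse (594 to 110, 1157 to 1780). In the megakaryocyte list 3 of 18 were lower in LSK and higher in LinNeg: Nrgn (1974 to 344, 294 to 717), the multimerin gene Mmrn1 (1376 to 56, 163 to 354) and F2r, the thrombin receptor (4804 to 2644, 965 to 1790). The erythroid transcription and receptor list had 3 of 28 of this kind, against 2.51% over all tested genes. These were Cish, Bcl2l1 and Pim1, all known targets of STAT5, a link that was not tested. In this list the difference passed in 8 genes upward and 9 downward. Cish, a feedback inhibitor of cytokine receptors, went from 304 to 211 in LSK and from 323 to 3282 in LinNeg. Jak2, the kinase upstream, was the other way (3694 to 4185, 20070 to 7742). The changes of Cish, Bcl2l1 and Pim1 in LSK were modest. Of these 3 genes 0 reached 2-fold in both tables, and 0 stayed opposite with doubled standard errors.

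Interferon-stimulated genes split. Of 40 tested, 4 were lower in LSK and higher in LinNeg, namely the oligoadenylate synthetase family genes Oas2, Oas3 and Oasl2 and Ifit1, and 3 were the reverse, namely Bst2, Gbp3 and Lgals3bp. Oas2 went from 582 to 201 in LSK and from 107 to 215 in LinNeg, and Gbp3 from 1232 to 2096 and from 678 to 300. The medians were 0.08 and 0.20. In the NF-kB list 2 of 25, Nfkbiz (713 to 233, 1070 to 4342) and Traf3, and in the immediate early list 1 of 25, Dusp1 (1270 to 318, 309 to 594), were lower in LSK and higher in LinNeg. Over all tested genes the share was 2.51% in this direction and 7.06% in either. All 11 differences that passed among the immediate early genes were downward (medians -1.57 and -0.05). The quiescence list had 1 of 22, Tob1, against the same 2.51%. B cell and T, NK and innate lymphoid genes had 0 opposite members of 9 and 6.

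Of 15 heme synthesis genes 13 had no called difference, and their medians were 1.44 in both tables. The 1 opposite gene was Alas1, the housekeeping form of the first enzyme of the pathway, which went from 2137 to 5401 in LSK and from 2695 to 1333 in LinNeg. Its erythroid counterpart Alas2, named after its value was seen, was at 3.68 and 3.19 in the authors' deposited tables. Red cell membrane and globin genes had 0 opposite of 22, with medians of 2.77 and 2.12.

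Cytosolic ribosomal proteins and nuclear-encoded oxidative phosphorylation differed in size rather than direction. Of 76 ribosomal protein genes 33 differed, all higher in LSK (medians 0.53 and 0.08). Of 64 oxidative phosphorylation genes 31 did, all higher in LSK (medians 0.81 and 0.26). Over all tested genes 38.0% differed, with 23.0% higher in LSK. With each table recentred on its median gene, 20 ribosomal protein and 23 oxidative phosphorylation genes differed, again all higher in LSK. Opposite members were 0 in both lists. Ribosome biogenesis went the other way, with 21 of 50 lower and 3 higher in LSK (medians 0.73 and 1.18) and 1 opposite, the MYC antagonist Mxi1, or 0 with each table recentred on its median gene. Translation factors and tRNA synthetases had 0 opposite of 45, and chaperones and proteasome 0 of 46.

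Among the early spliceosome components, the group to which U2af1 belongs, 42 of 45 had no called difference and medians of 0.53 and 0.45. One was opposite, Prpf40b (605 to 342, 190 to 367). Of 57 SR proteins, hnRNPs and splicing kinases 44 had no called difference, with Rbfox2 opposite (482 to 120, 185 to 421). Nonsense-mediated decay factors and snoRNA hosts had 0 opposite of 32, and the 6 differences that passed were all lower in LSK, as for Snhg4 (791 to 1352 in LSK, 236 to 806 in LinNeg). Chromatin regulators mutated in myelodysplasia had 2 of 31, Idh1 and the cohesin gene Rad21, both higher in LSK and lower in LinNeg, a share near the 7.06% over all tested genes. Recentring each table left 1 of the 2. A difference that did not pass does not show that the effects were equal.

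**Figure D5:**
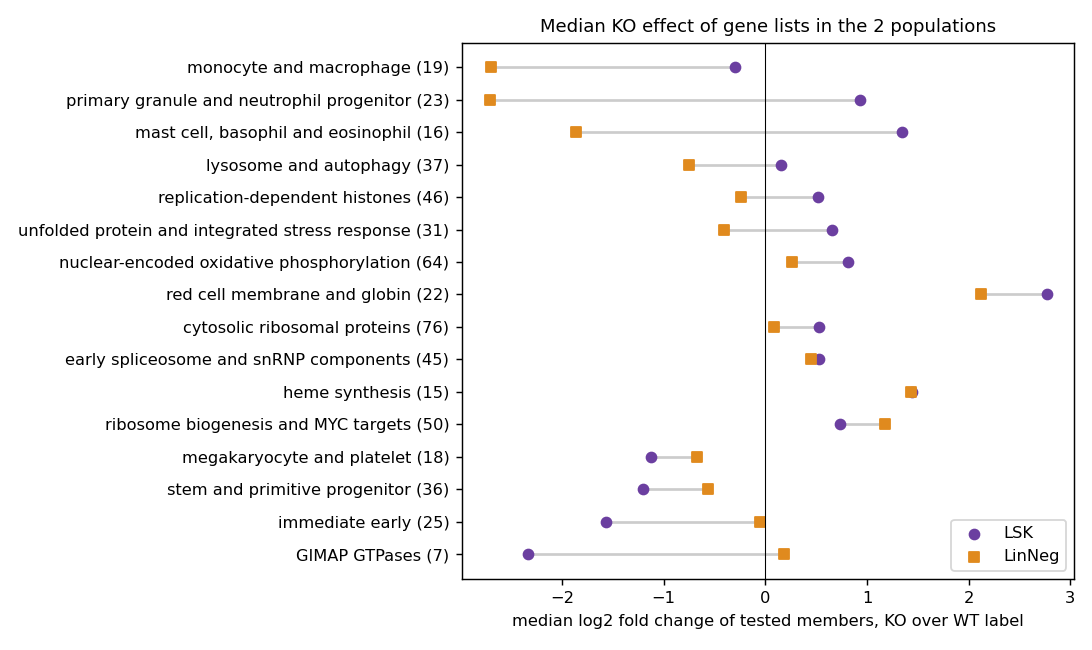
Median log2 fold change of KO over WT of the tested members of 16 lists on the x axis, with circles for LSK and squares for LinNeg (tested genes in brackets). The symbols lie far apart for monocyte, primary granule, mast cell, basophil and eosinophil genes and for GIMAP genes, and almost together for heme synthesis (1.44 in both) and early spliceosome genes (0.53 and 0.45).

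The 2 opposite classes also differed in gene structure. Because U2af1 acts on introns, exon number was taken from the principal transcript of each gene in GENCODE M21 (mm10). The median was 8 exons in the 467 placed members of the class higher in LSK, 11 in the 258 placed members of the reverse class and 9 over all tested genes. Median transcript lengths were 2750, 4313 and 3052 bases, and median gene spans 19949, 48843 and 24227 bases. Genes with a single exon, which need no splicing, made up 4.28%, 1.94% and 2.59%, with the histone genes above counted in the first. The X chromosome held 3.21%, 1.55% and 3.11%. These are descriptions with no test.

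Some members lay side by side. Among tested genes in chromosome order, 69 of 467 placed members (14.8%) of the class higher in LSK had another member as the next tested gene, in 37 pairs; of the other tested genes 8.57% lay next to a member. The pairs included Prtn3 and Elane, Mcpt8 and Ctsg, Ms4a2 and Ms4a3, Fcgr2b and Fcgr3, and Csf2rb2 and Csf2rb, along with runs of histone genes. In the reverse class 20 of 258 (7.75%) did so, in 10 pairs such as Oas2 and Oas3, beside 4.91% of the other genes. Near-identical neighbours can share reads, which was not tested. Of the named loci, Elane (ENSMUSG00000020125.7) lies at 79886247 to 79888215 on chromosome 10, Mpo (ENSMUSG00000009350.13) at 87793581 to 87804413 on chromosome 11, and Hnf4a (ENSMUSG00000017950.16) at 163506808 to 163572910 on chromosome 2, all on the plus strand of mm10.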

How the data were processed

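The deposited data are 2 tables of the authors' own comparisons of KO with WT, 1 within LinNeg and 1 within LSK, each over 6 of the 12 libraries. Per the submitters' processing notes, HISAT2, SAMtools 1.10, StringTie and DESeq2 were used with build mm10; the program that counted reads and its gene models are not given in these sources. Per the labels' protocols, marrow was lineage-depleted on magnetic columns and sorted, and ribosomal RNA was depleted from total RNA. Per the file headers, each row gives the authors' mean normalized count, which is a linear signal, then their log2 fold change with its standard error. The deposited row ends with a score, the Wald statistic of the authors, and their p-value with and without adjustment. The deposited log2 values are rounded, so statistic times standard error was used.

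The tables were joined on symbol. Of 24542 rows, 5 that name no gene and 4 with repeated symbols were dropped, and 22 symbols had been turned into dates. Reads without a feature were 26.4% of the LSK and 38.0% of the LinNeg table total. Genes whose mean reached 100 in both tables were kept (10426, of which 1 had no p). The difference of the log2 fold changes was divided by its standard error, the square root of the 2 squared standard errors added up, with a two-sided normal test and Benjamini-Hochberg adjustment over 10425 genes, called under 0.05. The difference test was tested on simulated data. The simulated noise was drawn with the deposited standard errors, so it cannot show whether those standard errors are right. Precision is limited by the 3 libraries a group and by the LinNeg standard errors.

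The classes, 43 gene lists, 7 marker lists and 9 strings were chosen with earlier results of these data known. U2af1 was named by rule, as were the 5 largest differences of each sign in units of the standard error. So were the 15 genes of each opposite class with the largest smaller change of the 2 tables. Those 15 and 5 were taken from genes with a proper name, without symbols such as Gm plus digits or ending in Rik. Also named by rule were up to 4 opposite members of each list (2 of the smallest adjusted p where a list has none). Other genes were chosen after their values were seen. Gene models came from GENCODE M21 (97.7% of tested genes matched) and promoters from RefSeq (GRCm38.p6; 8194 tested genes). Tables were computed with scipy 1.17.1, numpy 2.4.6 and pandas 2.3.3 in Python 3.11.15, and plots drawn with matplotlib 3.10.9. Alternatives changed the floor, the centring, the fold change column, the reference distribution, the standard errors, the threshold, the minimum size and the genes kept. A few genes that the rule names are not reported here.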

Additional observations from a re-analysis of the deposited data

Results flagged for a closer look

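The KO effect differed between the populations, by a test of the difference itself, in 2393 genes with a higher effect in LSK and 1566 with a lower one. The test also separated 4 Y-linked genes: the difference was -8.42 for Ddx3y, -8.29 for Eif2s3y, -8.04 for Kdm5d and -8.39 for Uty on the log2 scale. Xist was higher under KO in both populations, and its difference of -2.53 (standard error 2.04) did not pass. Reads that fell in no feature, which name no gene, stood at -0.47 (standard error 0.05) on the log2 scale in the authors' deposited LSK table and at 0.01 (standard error 0.19) in the authors' deposited LinNeg table, a difference of -0.48 (standard error 0.20, unadjusted p = 0.0155, two-sided normal test).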

How the results depend on the processing

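No paired analysis was possible because the deposited tables hold comparisons and no values per library, and for the same reason no replicate could be left out. Of the 3959 called differences, 2235 were left with a floor of 1000, 998 with the standard errors doubled and 1759 with a 2-fold minimum. Effects higher in LSK went from 2393 to 670 with doubled standard errors and 896 with the 2-fold minimum; those lower in LSK went from 1566 to 557 with the higher floor, 328 with doubled standard errors and 863 with the 2-fold minimum. The class higher in LSK and lower in LinNeg went from 474 to 133 and 57 under the last 2 settings. The reverse class of 262 stood at 428 with no floor, 49 with a floor of 1000, 35 with doubled standard errors, 156 at adjusted p under 0.01 and 103 with the 2-fold minimum; fewer genes tested is the construction of the floors, and the cause was otherwise not tested. With each table recentred on its median gene the classes held 397 and 323 genes, of which 397 and 262 were members before, so some opposite calls ended (Mxi1, and 2 of the 4 cell cycle genes), and the share of called differences that were higher in LSK went from 60.4% to 50.8%. For the difference itself, 0 of the 135 named genes reversed; the recentring ended 1 call (Eef2k), a t reference 4, doubled standard errors 36, the stricter threshold 3 and the 2-fold minimum 20, and 74 fell below the floor of 1000.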
